A study of Mus musculus with 8 samples.

Results

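The genes described here are the BMP (bone morphogenetic protein) ligands Bmp2, Bmp4 and Bmp6, the receptor Bmpr2, the antagonists Grem1, Chrdl1 and Nog, and the target genes Id1, Id2 and Id3. They are 10 of the 37979 genes listed, found by their gene symbols, and all 10 had FPKM above 0 in at least 1 library. Bulk RNAseq was performed on pericytes (PDGFRβ+tdTomato- cells) and SMCs (smooth muscle cells, PDGFRβ+tdTomato+ cells) sorted from hindlimb muscle, with 4 libraries of each. Both groups came from Ai14+/-;SM22α-Cre+ mice of both sexes, aged 3 to 4 months, in which Cre under the SM22α promoter turns on tdTomato for good, so a cell that once used this promoter counts as an SMC and tdTomato+ pericytes would be counted there too. Each library pooled the cells of several sorts. Cells positive for CD31 or CD45 (endothelial and blood cell proteins) were gated out in the stated protocol. The legend of the study's gating figure differs, as it writes both groups as CD31+ and CD45-. Levels are in FPKM, fragments scaled to transcript length and library size, which allows levels to be compared between genes. Differences are in log2(FPKM + 1), pericytes minus SMCs, a scale that understates the change of low genes.

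BMPs are secreted ligands of the TGF-β superfamily. They bind complexes of type I and type II receptor kinases, which phosphorylate the receptor Smads, and these enter the nucleus with Smad4 and switch on target genes, of which the Id genes are the classic examples. Id proteins lack a DNA-binding region and hold basic helix-loop-helix transcription factors inactive. Extracellular antagonists such as noggin, gremlin and chordin-like proteins bind the ligands and keep them from their receptors. In blood vessels the pathway acts in endothelial and mural cells, and mutations of the human BMPR2 gene cause heritable pulmonary arterial hypertension.

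The libraries had summed FPKM between 690247 and 1190435 in pericytes and between 656405 and 737839 in SMCs. Pericyte replicate 2 had the highest sum, and the other pericyte libraries had at most 782014. The largest relative depth, read from the steps of low values, was 1.24 times the smallest. Markers of leukocytes in pericytes and of endothelial cells in SMCs went against the gate on CD45 and CD31, and markers of other cell types were also measured. All 5 pan-leukocyte markers were higher in pericytes, with a summed level of 4050 to 7131 FPKM against 226 to 311 FPKM in SMCs. T cell markers (7 of 8 higher in pericytes) summed to 1595 to 2436 FPKM against 25.5 to 55.1 FPKM, and B cell markers (6 of 6) to 798 to 2016 FPKM against 9.21 to 31.9 FPKM. Endothelial markers (5 of 8 higher in SMCs) summed to 250 to 838 FPKM in SMCs against 57.5 to 112.9 FPKM in pericytes. Fibroblast markers (7 of 8 higher in SMCs) summed to 4502 to 6390 FPKM in SMCs against 1034 to 1936 FPKM in pericytes, with Dcn as the exception. Dcn (decorin) was higher in pericytes, where it had 1165, 1115, 509 and 571 FPKM and so made up much of the sum, and was listed at 0 in every SMC library, a value that can be a failed estimate. Of the 10 pericyte markers only Rgs5 passed, higher in SMCs, with summed levels of 108 to 437 FPKM in SMCs and 47.5 to 128 FPKM in pericytes. None of the 8 smooth muscle markers passed, at 2826 to 8409 FPKM in SMCs and 911 to 2845 FPKM in pericytes. Macrophage markers summed to 1067 to 1704 FPKM in SMCs and 905 to 1894 FPKM in pericytes (2 of 6 higher in SMCs), satellite cell markers to 19.4 to 64.3 FPKM and 4.55 to 37.4 FPKM (0 of 3), and Schwann cell markers to 108 to 344 FPKM and 103 to 657 FPKM (0 of 5). None of these lists had a marker at 0 in a whole group other than Dcn. The part of these cells in the results below was not tested, and in bulk samples fewer cells of a type and less RNA per cell cannot be told apart. Of the genes of the sort, Pdgfrb had 3.21 to 17.6 FPKM in pericytes and 15.6 to 91.5 FPKM in SMCs (limma q = 0.0973). Tagln, which encodes SM22α, had 165 to 552 FPKM in pericytes and 500 to 1569 FPKM in SMCs (q = 0.110), and Acta2 had 330 to 1258 FPKM and 1158 to 3291 FPKM (q = 0.0979). These 3 genes passed with a filter at 1 FPKM (q = 0.0272 for Pdgfrb, 0.0366 for Tagln and 0.0316 for Acta2), Pdgfrb also with a covariate for replicates 1 and 2 against 3 and 4 (q = 0.00104), and Tagln and Acta2 also with libraries rescaled to a common sum (q = 0.0388 and 0.0314), and Acta2 after quantile normalization (q = 0.0236). Pecam1 (CD31) had 25.0 to 59.7 FPKM in pericytes and 102 to 301 FPKM in SMCs (q = 0.00873), and Ptprc (CD45) 80.6 to 230 FPKM and 4.34 to 11.9 FPKM (q = 4.00e-04). The groups are called pericytes and SMCs after their labels.

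All 3 ligands, the receptor, 1 of the 3 antagonists and 2 of the 3 Id genes were higher in SMCs. Tested with limma across 27414 genes, 7 of the 10 genes had a q value below 0.05, against 21.8% of all genes tested. All 7 were higher in SMCs, as were 11.2% of all genes tested and 19.5% of the 13612 genes averaging 1 FPKM or more. With a log2 fold change above 2 in size as well, 2 of the 10 genes (Chrdl1 and Id1) were SMC-enriched, against 2.66% of genes. Which genes passed both thresholds depended on the processing. With libraries rescaled to a common sum, Bmp2 (-2.22), Bmp4 (-2.15) and Id3 (-2.07) passed as well, and after quantile normalization Bmp2 and Id3 did. Without pericyte replicate 2, Bmp4 (-2.15) and Id3 (-2.13) were added. Without pericyte replicate 3, Bmp2 (-2.04) was added and Id1 (-1.80) was lost. Id1 was also lost without SMC replicate 3 (-1.985) and without SMC replicate 4 (-1.979). Bmp2 was also added with a pseudocount of 0.1 (-2.39) and without pericyte replicate 4 (-2.24), SMC replicate 1 (-2.12) or SMC replicate 2 (-2.15). Bmp4 was also added without pericyte replicate 1 (-2.04) or SMC replicate 4 (-2.02). In 8 of the 10 genes the lowest SMC library exceeded the highest pericyte library, against 12.5% of genes. Such a separation by itself fixes the two-sided exact permutation p at 0.0286, the smallest that 4 against 4 allows, so this p adds nothing further for these 8. The median log2 fold change of the 10 genes was -1.39, against 0.02 for all genes tested. Labels do not say which libraries share animals, so p-values measure the spread between these libraries.

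**Figure D1:**
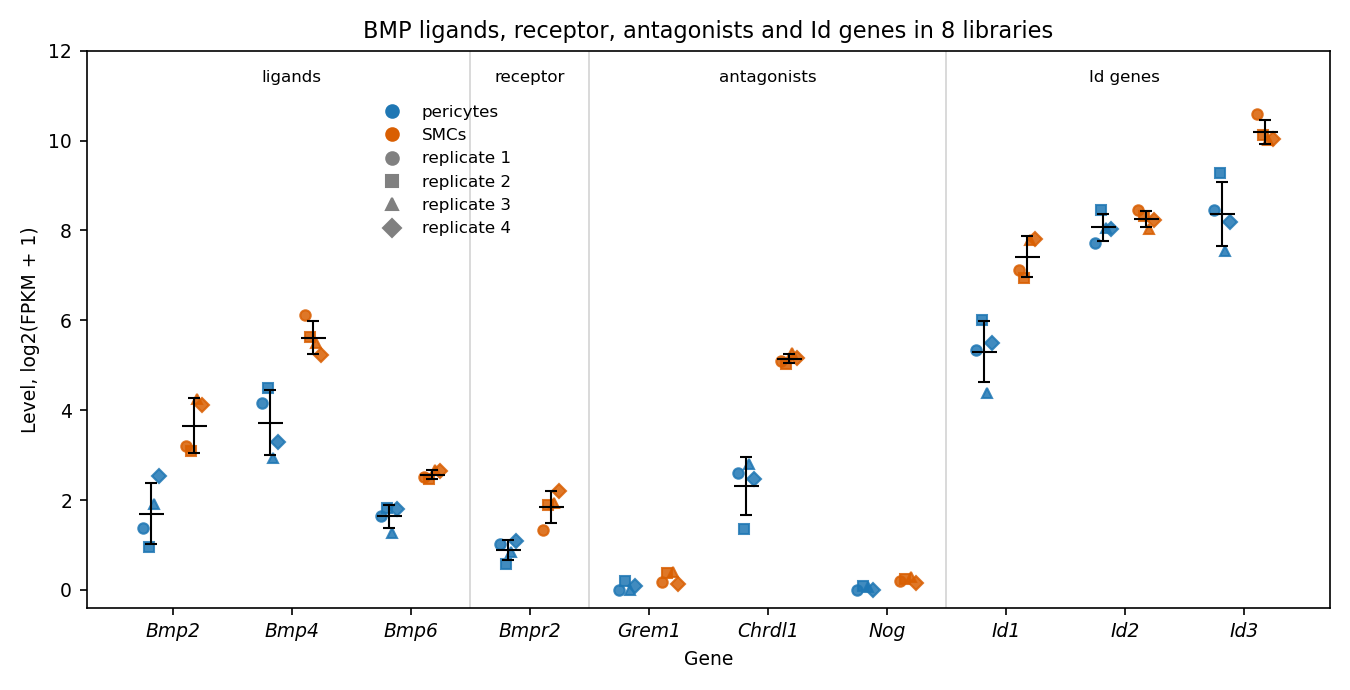
Level of each gene as log2(FPKM + 1) in the 4 pericyte libraries (blue) and the 4 SMC libraries (orange), with marker shapes for replicate numbers and black bars for the mean and SD of each group, left out for Grem1 and Nog, which are listed at 0 in some libraries. The SMC libraries lie above the pericyte libraries in 8 of the 10 genes, and the groups overlap in Grem1 and Id2.

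Bmp4 is the ligand with the highest level in both groups and acts in vessel and limb development. It lies at chr14:47003195-47010344 on the minus strand (NCBI Build 37). Its FPKM in pericyte replicates 1 to 4 was 16.8, 21.5, 6.68 and 8.76, and in SMC replicates 1 to 4 it was 68.0, 48.6, 43.9 and 36.5. The groups did not overlap, and within each group replicates 1 and 2 were above replicates 3 and 4. Pericytes averaged 13.4 ± 6.93 FPKM and SMCs 49.2 ± 13.5 FPKM (SD, n = 4 each), 3.66 times as much in SMCs. The difference was -1.90 log2 units (SE 0.373), with a limma q value of 0.0104. Gm15217 on the opposite strand shares 89 of the 2224 exon bases of Bmp4 and reached at most 0.0863 FPKM.

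Bmp2, a close relative of Bmp4 that also drives bone formation, lies at chr2:133377895-133388621 on the plus strand. It was lower than Bmp4 in every library, at 1.61, 0.937, 2.76 and 4.75 FPKM in pericyte replicates 1 to 4 and 8.15, 7.51, 18.0 and 16.2 FPKM in SMC replicates 1 to 4. The groups did not overlap, and here replicates 3 and 4 were above replicates 1 and 2 in both groups, the reverse of Bmp4. Pericytes averaged 2.52 ± 1.67 FPKM and SMCs 12.5 ± 5.41 FPKM (SD, n = 4 each). The difference was -1.96 log2 units (SE 0.415), with a limma q value of 0.0139. Without pericyte replicate 1 the limma q was 0.0509.

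Bmp6, best known for setting the iron hormone hepcidin in the liver, lies at chr13:38436995-38592183 on the plus strand. It varied least of the ligands, at 2.15, 2.55, 1.40 and 2.49 FPKM in pericytes and 4.66, 4.50, 5.34 and 5.23 FPKM in SMCs. All SMC libraries lay above all pericyte libraries, a difference of -0.93 log2 units (SE 0.135) with a limma q value of 0.00272. Txndc5 on the opposite strand shares 236 of the 3586 exon bases of Bmp6. It had 29.4 to 79.0 FPKM in pericytes and 43.0 to 221.9 FPKM in SMCs, and without knowledge of the strand its reads cannot be told apart from those of Bmp6 where they overlap.

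The ratio of Bmp2 to Bmp4 followed the replicate numbers and not the groups. It was 0.0961 and 0.0436 in pericyte replicates 1 and 2, and 0.413 and 0.542 in pericyte replicates 3 and 4. In SMCs it was 0.12 and 0.155 in replicates 1 and 2, and 0.410 and 0.445 in replicates 3 and 4. A ratio within a library does not change with the scaling of the library. No sample label parts replicates 1 and 2 from replicates 3 and 4, so this division is one seen in the data and was not tested. Endothelial markers summed to 250 to 378 FPKM in SMC replicates 1 and 2 and to 624 to 838 FPKM in SMC replicates 3 and 4, pericyte markers to 108 to 124 FPKM and 308 to 437 FPKM, and smooth muscle markers to 2826 to 3181 FPKM and 5272 to 8409 FPKM. In pericytes, smooth muscle markers overlapped, at 1093 to 2845 FPKM in replicates 1 and 2 and 911 to 2584 FPKM in replicates 3 and 4. Endothelial markers in pericytes also overlapped between these replicates, at 57.5 to 93.1 FPKM in replicates 1 and 2 and 71.0 to 112.9 FPKM in replicates 3 and 4, and pericyte markers did not, at 47.5 to 67.5 FPKM and 81.2 to 128 FPKM. Schwann cell markers followed the replicates in both groups, at 103 to 147 FPKM in replicates 1 and 2 and 534 to 657 FPKM in replicates 3 and 4 of pericytes, and at 108 to 125 FPKM and 330 to 344 FPKM in SMCs. B cell and satellite cell markers were higher in replicates 1 and 2 of both groups. B cell markers had 1344 to 2016 FPKM in replicates 1 and 2 and 798 to 897 FPKM in replicates 3 and 4 of pericytes, and 31.0 to 31.9 FPKM and 9.21 to 12.9 FPKM in SMCs. Satellite cell markers had 32.3 to 37.4 FPKM and 4.55 to 22.6 FPKM in pericytes, and 49.8 to 64.3 FPKM and 19.4 to 28.7 FPKM in SMCs. Fibroblast markers were higher in replicates 1 and 2 of pericytes (1854 to 1936 against 1034 to 1185 FPKM) and in replicates 3 and 4 of SMCs (5352 to 6390 against 4502 to 5019 FPKM).

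Bmpr2, the type II receptor that binds BMPs, lies at chr1:59821481-59927703 on the plus strand. It was low in all libraries, at 1.03, 0.497, 0.783 and 1.14 FPKM in pericytes and 1.53, 2.69, 2.82 and 3.59 FPKM in SMCs. The lowest SMC library was above the highest pericyte library. Pericytes averaged 0.862 ± 0.285 FPKM and SMCs 2.66 ± 0.85 FPKM (SD, n = 4 each), a difference of -0.96 log2 units (SE 0.199) with a limma q value of 0.0132.

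The antagonists lay far apart in level. Chrdl1, chordin-like 1, lies at chrX:139720217-139828805 on the minus strand and had 5.03, 1.56, 6.005 and 4.56 FPKM in pericytes and 33.2, 31.8, 37.7 and 34.6 FPKM in SMCs. Its SMC libraries were close to each other and far above every pericyte library. The difference of -2.83 log2 units (SE 0.303), with a limma q value of 7.06e-04, was the largest among the 10 genes. Chrdl1 alone made up nearly all antagonist signal of the 3 genes, whose sum was 32.3 to 38.2 FPKM in SMCs and 1.76 to 6.05 FPKM in pericytes.

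Grem1, gremlin, at chr2:113586321-113598803 on the minus strand, reached at most 0.314 FPKM. It was listed at 0, 0.142, 0 and 0.0686 FPKM in pericytes and at 0.124, 0.290, 0.314 and 0.0873 FPKM in SMCs. The groups overlapped (limma q = 0.190, 95% interval of the log2 fold change from -0.40 to 0.02). Nog, noggin, at chr11:89161952-89163873 on the minus strand, was listed at 0, 0.0555, 0.0478 and 0 FPKM in pericytes and at 0.145, 0.181, 0.213 and 0.114 FPKM in SMCs. Its SMC libraries were all above its pericyte libraries, yet the limma q was 0.0534 and the difference was -0.18 on the log2 scale. As for Dcn, a value of 0 can be a failed estimate, since the housekeeping gene Ubb (ubiquitin) was at 0 in each of the 8 libraries. For genes as low as Grem1 and Nog, it can also mean that no fragment was seen, and without counts these cannot be told apart. Nog passed with a pseudocount of 0.1 (limma q = 0.0185), with all listed genes (q = 0.0168), with an intensity trend (q = 0.0213), with libraries rescaled to a common sum (q = 0.0336) and without pericyte replicate 2 (q = 0.0338).

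The Id genes were the most abundant of the 10 and split into Id1 and Id3, which were higher in SMCs, and Id2, which did not pass. Id1 lies at chr2:152561987-152563146 on the plus strand. Its FPKM was 39.7, 63.1, 19.9 and 43.8 in pericytes and 137.9, 121.7, 221.3 and 224.1 in SMCs. The groups did not overlap, and SMC replicates 3 and 4 were above SMC replicates 1 and 2. Pericytes averaged 41.6 ± 17.7 FPKM and SMCs 176 ± 54.1 FPKM (SD, n = 4 each), a difference of -2.11 log2 units (SE 0.373) with a limma q value of 0.00651. Id3 lies at chr4:135699412-135701670 on the plus strand and had the highest level of all 10 genes in SMCs. It had 351, 622, 186 and 291 FPKM in pericytes and 1550, 1109, 1037 and 1048 FPKM in SMCs. SMC replicate 1 stood above the other SMC libraries, and all SMC libraries were above all pericyte libraries (log2 fold change -1.82, standard error 0.353, limma q = 0.00969).

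Id2, which also has a role in lymphoid and innate immune cells, lies at chr12:25778666-25780957 on the minus strand. It had 211, 350.4, 264 and 262 FPKM in pericytes and 351, 316, 261 and 302 FPKM in SMCs. Pericyte replicate 2 was within 1 FPKM of the highest SMC library, and the groups overlapped. The log2 fold change was -0.19 with a 95% interval from -0.58 to 0.19 (limma q = 0.522). It was -0.08 without pericyte replicate 1 (limma q = 0.779) and -0.32 without pericyte replicate 2 (limma q = 0.147). Rescaled to a common sum, Id2 passed at -0.43 (limma q = 0.0350), a scaling that moved the median log2 fold change of genes averaging 1 FPKM or more from 0.05 to -0.16.

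Within a library, the ratio of Id1 to Id2 was 0.188, 0.18, 0.0754 and 0.167 in pericytes and 0.393, 0.384, 0.849 and 0.742 in SMCs. The ratio of Id3 to Id2 was 1.66, 1.77, 0.704 and 1.11 in pericytes and 4.41, 3.5, 3.98 and 3.47 in SMCs. Neither ratio overlapped between the groups. The ratio of Id1 to Id3 did overlap, at 0.102 to 0.151 in pericytes and 0.0889 to 0.214 in SMCs.

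**Figure D2:**
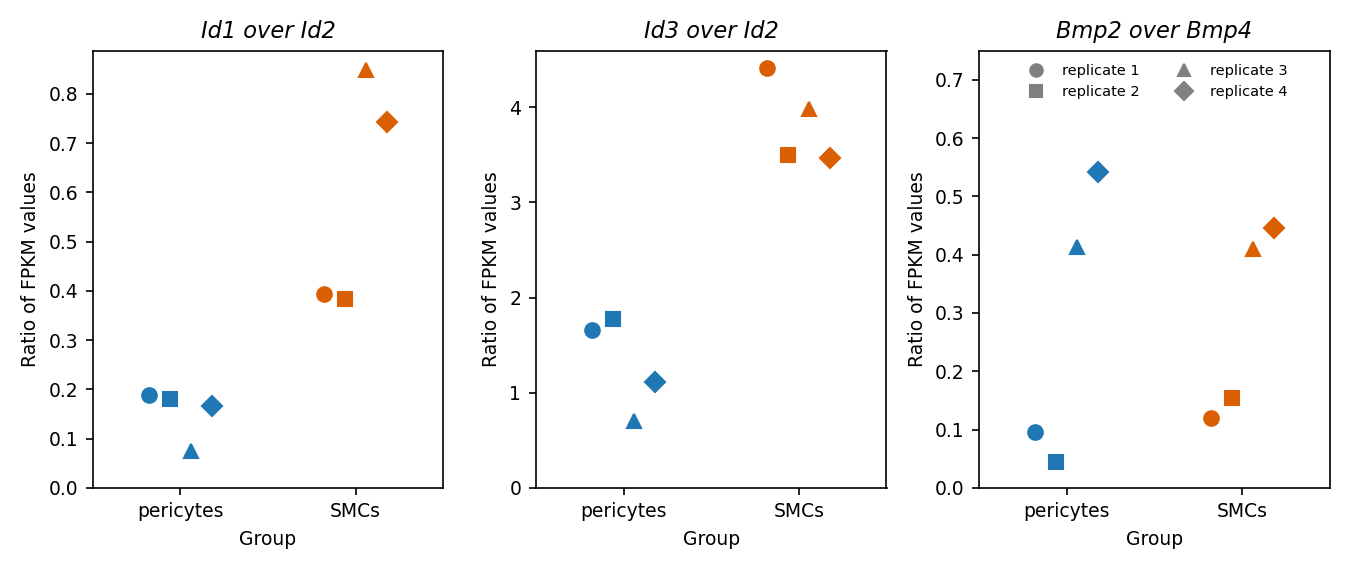
Ratio of FPKM values (linear axes from 0) within each library for Id1 over Id2, Id3 over Id2 and Bmp2 over Bmp4, with a point per library, colours for groups and shapes for replicates. Both Id ratios part the groups, whereas Bmp2 over Bmp4 is at most 0.155 in replicates 1 and 2 and at least 0.410 in replicates 3 and 4 of both groups.

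Ranked by mean log2(FPKM + 1), the genes had the same order in both groups, from Id3, Id2, Id1, Bmp4 and Chrdl1 to Bmp2, Bmp6, Bmpr2, Grem1 and Nog. In SMCs, Bmp4 and Chrdl1 overlapped in their library values, as did Grem1 and Nog, and the other neighbours did not. In pericytes, overlapping neighbours were Id3 and Id2, Id1 and Bmp4, Chrdl1 and Bmp2, Bmp2 and Bmp6, and Grem1 and Nog. Mean log2 levels of Id3 and Id2 were 8.37 ± 0.72 and 8.07 ± 0.30 (SD, n = 4) in pericytes and 10.19 ± 0.27 and 8.26 ± 0.18 (SD, n = 4) in SMCs.

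**Figure D3:**
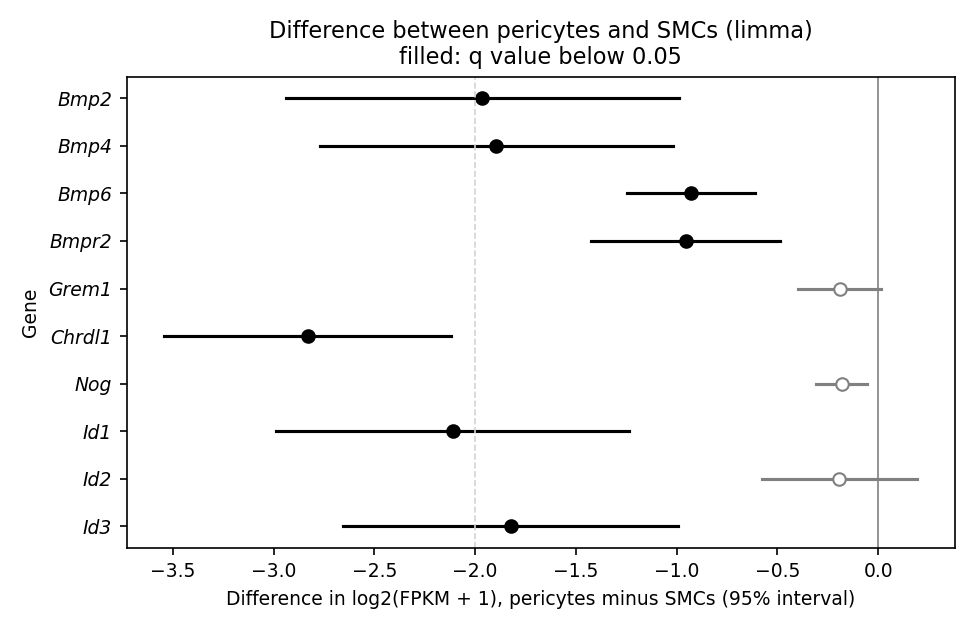
Difference in log2(FPKM + 1), pericytes minus SMCs, for each gene with its 95% interval from the limma fit of 4 against 4 libraries, filled where the q value was below 0.05, with a dashed line at -2. The differences run from -2.83 for Chrdl1 to -0.18 for Nog, and the intervals of Grem1 and Id2 include 0.

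Promoters are shown for Bmp4, which was higher in SMCs, and Id2, which did not pass, as a pair that differed in outcome. RefSeq (GRCm38.p6) promoter windows were matched for 6 of the 10 genes, and Bmp2, Chrdl1, Nog and Id1 had no entry. The windows hold 250 bases before the start site. Capitals mark the letters GGCGCC (its own reverse complement) and GGAGCC or its reverse GGCTCC, GC-rich words that BMP-activated Smads can bind. The Bmp4 window is chr14:46390670-46390919 and the Id2 window chr12:25096093-25096342, both on the minus strand.
Bmp4: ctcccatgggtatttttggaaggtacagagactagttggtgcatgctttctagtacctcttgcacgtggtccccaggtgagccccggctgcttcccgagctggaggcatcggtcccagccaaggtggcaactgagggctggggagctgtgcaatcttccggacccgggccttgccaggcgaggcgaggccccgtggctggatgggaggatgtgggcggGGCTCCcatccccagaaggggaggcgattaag
Id2: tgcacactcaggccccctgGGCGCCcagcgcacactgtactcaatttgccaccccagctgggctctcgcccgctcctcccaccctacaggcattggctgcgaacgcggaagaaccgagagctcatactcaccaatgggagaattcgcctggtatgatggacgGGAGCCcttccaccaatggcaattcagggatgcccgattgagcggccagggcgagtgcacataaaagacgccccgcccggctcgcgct
The Bmp4 window holds 1 GGAGCC, starting 32 bases before the start site. The Id2 window holds 1 GGCGCC at 231 bases and 1 GGAGCC at 88 bases before the start site. CAGAC or its reverse GTCTG, the core word bound by Smad4, is in neither window. Among the other windows, Bmpr2 had GGCGCC at 105 bases, Grem1 had GGCGCC at 78 bases and CAGAC at 219 bases, and Bmp6 had CAGAC at 119 bases. The Id3 window had GGAGCC at 187 bases and CAGAC at 167 and 68 bases, and it lies in a 5′ exon of Id3 in the annotation used for the positions, so its sequence is not shown. Of 32851 windows of the same length, 9.59% hold GGCGCC, 26.0% hold GGAGCC and 42.2% hold CAGAC, on either strand. These matches describe letters and no binding was measured.

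The rest of the pathway was read from a list of 47 other genes, and 22 of them had a limma q value below 0.05, against 21.8% of all genes tested. Of the 22 genes, 21 were higher in SMCs and 1 in pericytes, against 11.2% and 10.6% of all genes tested. Of the 47 genes, 33 averaged at least 1 FPKM in a group. Among the 13612 genes averaging 1 FPKM or more over all libraries, 19.5% were higher in SMCs. The median log2 fold change of the 47 genes was -0.52, against 0.02 for all genes tested. The count fell to 13 without pericyte replicate 1, to 14 without pericyte replicate 3 and to 14 without SMC replicate 3. The calls over all genes tested fell as well in these fits, from 5977 to 4846, 4713 and 4791.

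Among 10 other ligands, 3 were higher in SMCs (Bmp3, Bmp5 and Gdf6). Bmp5 had 25.9, 32.0, 16.2 and 18.8 FPKM in SMCs and 1.86, 3.84, 1.5 and 1.35 FPKM in pericytes (log2 fold change -2.96, standard error 0.293, limma q = 4.98e-04). Bmp3, which opposes other BMPs in bone, had 4.66 to 6.25 FPKM in SMCs and 0.307 to 0.737 FPKM in pericytes (log2 fold change -2.10, standard error 0.122, limma q = 5.46e-05). By mean, Bmp5 followed Bmp4 among the ligands in SMCs, and its SMC libraries overlapped those of Bmp2. Gdf6 reached at most 0.503 FPKM.

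Of 6 other receptors, 5 were higher in SMCs (Acvrl1, Acvr1, Bmpr1a, Bmpr1b and Acvr2a), with Acvr2b as the exception. Acvrl1 encodes ALK1, a type I receptor of endothelial cells. It had 24.1, 23.9, 62.9 and 91.4 FPKM in SMCs and 7.14, 8.23, 10.4 and 14.9 FPKM in pericytes (log2 fold change -2.02, limma q = 0.0222), and it missed the threshold without pericyte replicate 1, 2 or 3 and without SMC replicate 3, with limma q values up to 0.0743. Acvr1, which encodes ALK2, had 5.13 to 10.7 FPKM in SMCs and 0.509 to 3.34 FPKM in pericytes (log2 fold change -1.76, limma q = 0.0127). Of 5 coreceptors and decoys, Eng and Bambi passed, both higher in SMCs. Eng, endoglin, an endothelial coreceptor, had 31.6, 38.2, 148 and 194 FPKM in SMCs and 5.57 to 21.8 FPKM in pericytes (log2 fold change -2.55, limma q = 0.0369). Bambi, a receptor decoy without a kinase, had 37.3 to 48.9 FPKM in SMCs and 16.3 to 37.6 FPKM in pericytes (log2 fold change -0.98, limma q = 0.0328). Leaving out 1 library took the call from Eng in 6 of 8 cases, namely any pericyte replicate or SMC replicate 3 or 4 (limma q up to 0.0979, without SMC replicate 3). It took the call from Bambi in every case but pericyte replicate 2 (limma q up to 0.0948).

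Of 12 other antagonists and binding proteins, 8 were higher in SMCs, among them Chrd, Fst, Fstl1, Twsg1 and Bmper. Bmper, a secreted BMP-binding protein first known from endothelial precursors, had 25.3, 21.0, 19.6 and 13.1 FPKM in SMCs and 2.46, 0.0522, 0.416 and 2.66 FPKM in pericytes. Its difference was -3.28 log2 units (SE 0.451), with a limma q value of 0.00214. Fstl1, follistatin-like 1, had 241 to 598 FPKM in SMCs and 27.9 to 76.7 FPKM in pericytes (log2 fold change -2.96, standard error 0.441, limma q = 0.00308). Both were above the pericyte range in every SMC library.

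Of 8 Smads and Smad ubiquitin ligases, only the inhibitory Smads passed, in opposite directions. Smad6, which mainly restrains BMP receptor signals, had 0.182, 0.442, 0.103 and 0.197 FPKM in pericytes and 1.05, 1.26, 1.77 and 1.42 FPKM in SMCs (log2 fold change -0.95, standard error 0.121, limma q = 0.00151). Smad7, which restrains both TGF-β and BMP signals, had 3.89, 3.77, 3.15 and 2.60 FPKM in pericytes and 1.05, 0.946, 1.40 and 1.66 FPKM in SMCs (log2 fold change 0.94, standard error 0.140, limma q = 0.00292). The ratio of Smad6 to Smad7 was 0.0325 to 0.117 in pericytes and 0.858 to 1.33 in SMCs. The receptor Smads Smad1 and Smad5 did not pass, at 10.9 to 21.1 and 11.0 to 16.1 FPKM in SMCs and 3.17 to 15.5 and 8.36 to 13.9 FPKM in pericytes.

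Of 6 other target genes, Msx1 and Atoh8 were higher in SMCs. Msx1, a homeobox gene, had 45.4, 37.5, 59.2 and 65.3 FPKM in SMCs and 7.93, 14.9, 4.74 and 14.1 FPKM in pericytes (log2 fold change -2.30, standard error 0.357, limma q = 0.00368). Atoh8 had 4.14 to 9.18 FPKM in SMCs and 0.379 to 3.36 FPKM in pericytes (log2 fold change -1.48, limma q = 0.0443), and it passed in 1 of the 8 fits that leave out a library, that without pericyte replicate 4. Id4 reached at most 1.78 FPKM (limma q = 0.643).

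**Figure D4:**
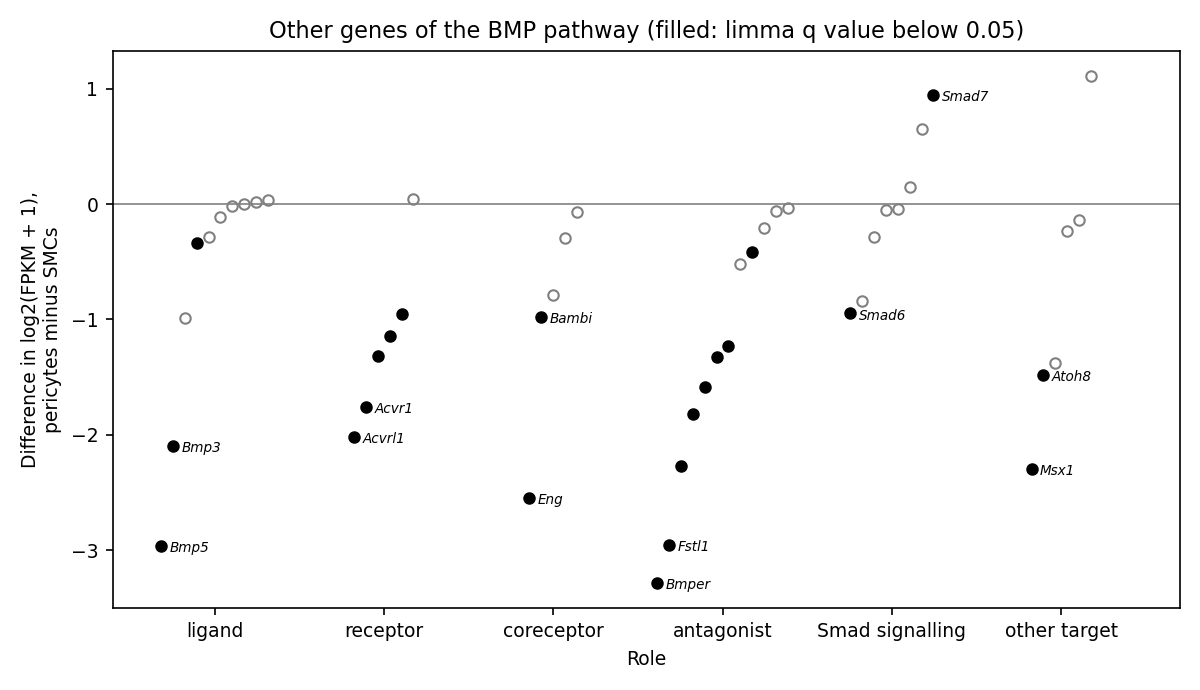
Difference in log2(FPKM + 1), pericytes minus SMCs, of the 47 other genes of the BMP pathway by role, a point per gene, filled where the limma q value was below 0.05, with names for the genes of largest change in each role and direction. Filled points lie below 0 in every role, and Smad7, at 0.94, is the filled point above it.

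For the gene with the widest spread in each role, the genes with the most similar pattern over the 8 libraries were listed by Pearson correlation of log2(FPKM + 1) among 13612 genes, as a description. Bmp2 was closest to Procr (r = 0.996), App (r = 0.994) and Jun (r = 0.994). Bmpr2 was closest to Mpdz (r = 0.997), Arhgap29 (r = 0.995) and Pecam1 (r = 0.991), the last of which encodes CD31. Chrdl1 was closest to Dkk3 (r = 0.996), Matn2 (r = 0.996) and Cdkn2b (r = 0.994), and Id1 to Il18bp (r = 0.995), Tspan12 (r = 0.994) and Cltb (r = 0.994). Between 205 and 271 genes reached 0.95 with each of the 4 genes, and the 8 points share their group and library.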

How the data were processed

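RNA of 4 pericyte and 4 SMC libraries was amplified with a SMART-Seq kit and sequenced as Nextera XT libraries. The authors aligned reads to NCBI Build 37 with Bowtie2 and TopHat and an Ensembl annotation, and deposited FPKM per gene and library, with no filter and no log. Strand handling and the program that gave FPKM are not given in the sources used here. FPKM hold no counts, so the depth behind a value is unknown, and relative depth came from values under 0.3 FPKM.

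Groups came from the sample titles. The log2(FPKM + 1) values were fitted in R 4.3.3 with limma 3.58.1 (lmFit, eBayes) over the 27414 genes above 0 in at least 1 library, with Benjamini-Hochberg adjustment (q value). As in the study, q below 0.05 and a log2 fold change above 2 marked enrichment. In a test on simulated data of 27414 genes for this comparison, 59 of 100 genes changed by 2 log2 units and 91 of 100 changed by 4 were called, with 10 unchanged genes. The changed genes were drawn only from genes of higher mean level, and far fewer were changed than were called in the real data. These rates therefore do not cover the lower genes Bmp2, Bmp6, Bmpr2, Grem1 and Nog. Single genes were also compared by two-sided exact permutation tests (scipy 1.17.1). Positions came from GENCODE version 1 for mouse (Ensembl release 65). For Runx2, which has 2 identifiers, the one with the higher mean was used.

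The genes described and all lists were chosen with earlier results of these data known. Beside the 10 genes, the text names up to 2 genes with the largest change in each role and direction of the pathway list, and others only in counts or lists or as examples (Gdf6, Smad1, Smad5, Id4) chosen after their values were seen. Alternatives were another pseudocount, a filter, a fit of all listed genes, other scalings, an intensity trend and the replicate block. Further alternatives were a covariate for replicates 1 and 2 against 3 and 4, fits within these replicates and each library left out. All alternatives were also run for the pathway genes named by this rule and for Pdgfrb, Acta2, Tagln, Pecam1 and Ptprc. This addition was made after seeing the data, and left out genes that only stand in a list or as an example.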

Additional observations from a re-analysis of the deposited data

Results flagged for a closer look

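Among 20 groups of 4 libraries checked (10 genes in pericytes and in SMCs), 1 held a library far from the others. SMC replicate 1 had 1550 FPKM of Id3, and its gap to the next SMC library was 0.834 of the whole SMC range on the log2 scale, above the 95% critical value of Dixon's test for 4 values. About 1 in 20 groups is picked by chance in this check. Without SMC replicate 1, Id3 kept its direction and a limma q value below 0.05.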

How the results depend on the processing

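All 10 genes kept their direction in all 188 fits of single genes under other settings, of which 170 also stayed on the same side of the q threshold, 12 lost the call and 6 gained it. Within replicates 1 and 2 of both groups, with 2 libraries a group, limma called 1710 genes in place of 5977, 798 of them higher in SMCs in place of 3060, 807 with a log2 fold change above 2 in place of 1616, 1 of the 10 genes (Bmp2) and 7 of the 47 other pathway genes. Within replicates 3 and 4 it called 3354 genes, 1477 of them higher in SMCs, 2 of the 10 genes (Bmp4 and Chrdl1) and 11 of the 47, and fewer libraries were fitted in both. A pseudocount of 0.1 gave 2749 genes above the fold threshold. Fitted with all listed genes, limma called 4684 genes, 8 of the 10 genes and 15 of the 47. That fit ended the calls of Acvrl1 (q = 0.0521), Eng (q = 0.0811), Bambi (q = 0.0703) and Atoh8 (q = 0.0938). With each library left out in turn, 6 to 8 of the 10 genes and 13 to 19 of the 47 were called, with 4713 to 6361 genes in all. The replicate numbers were not taken as pairs, since the deviations of same-numbered libraries from the means of their groups correlated by 0.0794 to 0.474 over 4 pairs, not all above 0.1 (2 of 4 pericyte libraries correlated best with their own number). With the replicate block, limma called 6153 genes, and the same 7 of the 10 genes, with Bmpr2 at q = 0.0331 and Id1 at q = 0.0370. The block called 18 of the 47 pathway genes in place of 22, ended the calls of Bambi (q = 0.0555) and Atoh8 (q = 0.0862), and brought Pdgfrb under the threshold (q = 0.00601). Grem1 and Nog had no value with the filter at 1 FPKM, and without counts the fragments behind their low levels are unknown.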
